A study of Mus musculus with 18 samples.

Results

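The genes described are 10 costimulators of the TNF receptor family and their ligands: the receptors Tnfrsf8 (CD30), Tnfrsf9 (CD137), Tnfrsf4 (OX40), Tnfrsf18 (GITR) and Cd27, and the ligands Tnfsf8, Tnfsf9, Tnfsf4, Tnfsf11 (RANKL) and Cd40lg. They were taken by symbol from tables of 23284 mouse symbols and, under their human names, from tables of 25548 human symbols, and 10 of 10 were found in both. RNA was sequenced in 18 libraries that form 6 groups of 3. ST2-high memory Th2 cells (T helper 2 cells that carry much ST2, the receptor of the alarmin IL-33) had been kept in culture for 3 days with IL-2 alone (libraries 1, 3 and 5) or with IL-2 and IL-33 (libraries 2, 4 and 6). Eosinophils had been cultured for the same time without amphiregulin, a ligand of the epidermal growth factor receptor, or with it (sample numbers 2, 3 and 4 in each group). Lungs came from wild-type mice and from dGATA knockout mice (libraries 1, 2 and 3 in each group), and all of these mice had been given OVA according to their sample labels, although the design text of the series names HDM instead, and which of the allergens was used could not be settled here. The strain label of every sample is BALB/c, ages are not given in the sources used here, and the labels do not say what dGATA removes or how the eosinophils were obtained. The eosinophil tables hold human symbols although the samples are labelled as mouse, so they were treated as human and never tested against the mouse libraries. Whether replicates are distinct mice, cultures or donors is not stated by the labels. The p-values therefore cover no more than the spread among the libraries at hand, which may be technical.

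TNF receptor family costimulators sit on activated T cells and, when bound by trimeric ligands on other cells, recruit TRAF adaptor proteins that switch on NF-kB and favour survival and cytokine production. OX40 and its ligand are known for sustaining Th2 and memory T cells in allergic airway disease, and CD30 is a surface protein of activated T cells first known from Hodgkin lymphoma. CD40 ligand and RANKL work in the other direction, from the T cell to B cells, dendritic cells and osteoclast precursors.

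The labels were checked against marker genes. The Th2 libraries held 1678 to 2694 FPKM (fragments scaled by transcript length and by the mapped fragments of the library, the deposited unit) of 11 summed T cell markers and at most 1.56 FPKM of 6 summed B cell markers, and Il1rl1, which encodes ST2, averaged 51.5 FPKM with IL-2 and 512 FPKM with IL-33. The eosinophil libraries held 193 to 714 FPKM of eosinophil markers, but also 6746 to 20807 FPKM of neutrophil markers and 168 to 631 FPKM of T cell markers. They further held 171 to 999 FPKM of macrophage and monocyte markers and 55.3 to 617 FPKM of mast cell and basophil markers. In sample numbers 2 and 3 of both groups the macrophage and monocyte sum exceeded the eosinophil sum. Lungs held 69.3 to 181 FPKM of T cell markers, and eosinophil markers summed to 14.4 to 25.3 FPKM in wild-type and 0.309 to 2.60 FPKM in dGATA lung. The sources used here do not give the total depth, and within each comparison the relative depth ranged from 0.669 to 1.34 in Th2 cells, from 0.363 to 1 in eosinophils and from 0.582 to 1 in lung. Th2 libraries 5 and 6 stood apart from the other 4: over well expressed genes the median absolute log2 difference was 0.06 between libraries 1 and 3 and 0.11 between 2 and 4, against 0.15 to 0.19 from these to library 5 or 6 of the same group. The titles of 5 and 6 spell ST2high where the other 4 have ST2High. After removing group means 5 and 6 correlated at 0.314, little above the 0.267 of libraries 3 and 2, and 1 and 4 at 0.176. No batch is named in the labels, so whether 5 and 6 were prepared together was not tested. Results that rest on libraries 5 and 6 are given without them, and where a call changes also from a fit with both as a block, which called 56.6% of all genes.

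Of the mouse genes, 5 lie on chromosome 4 of the mm10 build, and Tnfrsf4 and Tnfrsf18 are neighbours there, 9708 bases apart in the RefSeq annotation. The promoter windows of the receptors that changed most with IL-33, Tnfrsf8 and Tnfrsf9, and of the ligand Tnfsf8, which moved the other way, are shown because the 3 genes responded in the same cultures. Each runs 5′ to 3′ on the gene's own strand, from 250 bases before to 50 after the annotated start (RefSeq, GRCm38.p6), and capitals mark matches on either strand to an NF-kB motif, to an AP-1 motif (TGANTCA) or to a STAT motif (TTCNNNGAA).
Tnfrsf8, chr4:145315115-145315414, minus strand: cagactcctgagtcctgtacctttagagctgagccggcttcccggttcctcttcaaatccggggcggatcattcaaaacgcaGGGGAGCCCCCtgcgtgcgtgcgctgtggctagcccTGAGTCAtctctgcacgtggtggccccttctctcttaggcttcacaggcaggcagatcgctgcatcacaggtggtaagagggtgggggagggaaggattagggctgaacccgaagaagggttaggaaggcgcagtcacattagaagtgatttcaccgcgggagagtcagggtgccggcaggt
Tnfrsf9, upstream start, chr4:150919905-150920204, plus strand: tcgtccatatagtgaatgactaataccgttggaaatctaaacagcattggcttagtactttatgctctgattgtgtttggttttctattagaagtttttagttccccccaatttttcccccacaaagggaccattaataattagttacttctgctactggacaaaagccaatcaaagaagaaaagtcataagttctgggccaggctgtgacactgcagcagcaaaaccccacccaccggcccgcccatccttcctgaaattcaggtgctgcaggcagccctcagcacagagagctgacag
Tnfrsf9, downstream start, chr4:150927749-150928048, plus strand: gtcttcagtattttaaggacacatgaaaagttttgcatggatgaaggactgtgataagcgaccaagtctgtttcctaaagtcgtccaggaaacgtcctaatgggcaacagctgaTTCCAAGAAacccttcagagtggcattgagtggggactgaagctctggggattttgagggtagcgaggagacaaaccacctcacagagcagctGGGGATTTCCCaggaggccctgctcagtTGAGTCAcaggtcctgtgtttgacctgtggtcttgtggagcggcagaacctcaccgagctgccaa
Tnfsf8, chr4:63861235-63861534, minus strand: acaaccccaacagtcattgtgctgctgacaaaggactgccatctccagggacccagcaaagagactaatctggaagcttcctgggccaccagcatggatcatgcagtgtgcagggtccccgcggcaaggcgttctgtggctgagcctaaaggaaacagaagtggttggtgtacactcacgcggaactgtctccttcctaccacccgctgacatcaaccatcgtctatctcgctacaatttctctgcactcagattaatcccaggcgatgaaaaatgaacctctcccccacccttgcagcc

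Windows were found for 7 of the 10 genes. Counting from the start site, with negative positions upstream, the Tnfrsf8 window held 2 overlapping NF-kB matches at -168 and -167 and an AP-1 match at -132. The downstream start of Tnfrsf9 held 2 overlapping NF-kB matches at -43 and -42, an AP-1 match at -15 and a STAT match at -136, while the upstream start and the Tnfsf8 window held none of the 3 motifs. A match stood in 8.46% of 32851 windows of the same length for NF-kB, in 7.81% for AP-1 and in 8.30% for STAT, and 0.539% held both NF-kB and AP-1. Among the other members Tnfrsf18 had a STAT match, and Tnfrsf4, Tnfsf11 and Cd27 had none of the 3. A match is a stretch of letters only, and the table gives a single FPKM for both Tnfrsf9 starts.

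IL-33 added to IL-2 was accompanied by a large rise of 2 receptors, Tnfrsf8 and Tnfrsf9, and a large fall of 2 ligands, Tnfsf4 and Tnfsf8, while Cd27 and Tnfrsf4 rose by less. By limma on log2(FPKM + 1), with p-values adjusted by Benjamini-Hochberg over all 10296 genes tested and a threshold of 0.05, 4 of the 10 members were higher and 2 lower. Calls were frequent in this comparison: 42.1% of all genes tested were called, 16.3% as higher and 25.7% as lower. The groups did not overlap for 6 of the 10 members, against 56.7% of all genes, which is close to the background. Calls covered 60.0% of the members, against 42.1% of all genes. With 10 genes chosen when earlier results were known, neither share is read as a result. The description rests on the size and direction of the differences.

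**Figure D1:**
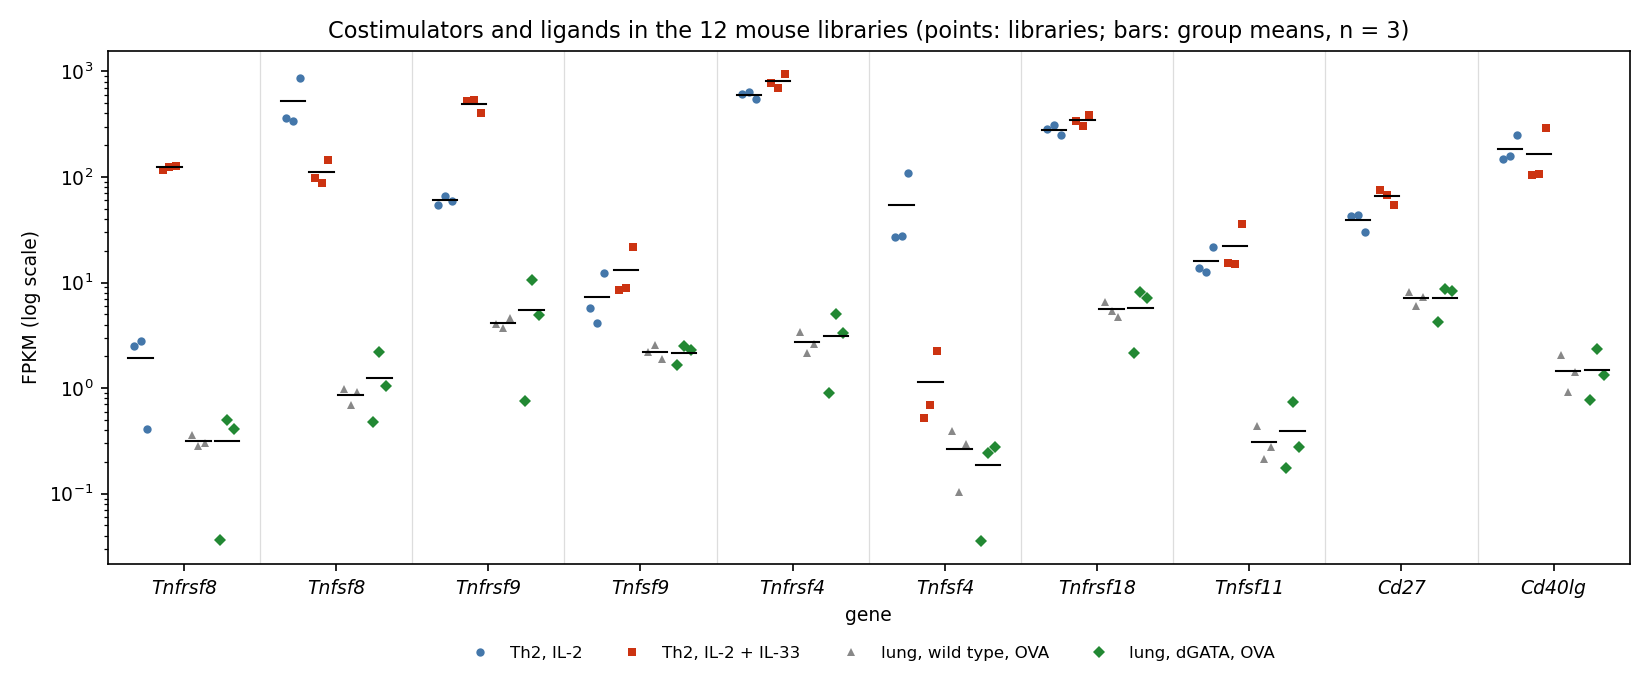
FPKM of the 10 genes (log scale) in the 12 mouse libraries, by group; points are libraries and bars are group means (n = 3). Tnfrsf8 lies between 116 and 128 FPKM with IL-33 and at or below 2.81 FPKM in every other mouse library, and all 10 genes are lower in lung than their higher Th2 group.

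Tnfrsf8, which encodes CD30, measured 2.51, 2.81 and 0.409 FPKM with IL-2 and 116, 125 and 128 FPKM with IL-33. Every IL-33 library was far above every IL-2 library, and the low value among the latter was that of library 5. The difference was 5.54 ± 0.355 (SE) on the log2(FPKM + 1) scale, which understates changes of genes near 1 FPKM, with an adjusted p of 7.33e-05 (limma). The ratio of the group means was 64.5, and the difference without libraries 5 and 6 was 5.05.

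Tnfrsf9, which encodes the costimulatory receptor CD137, measured 54.0, 66.5 and 59.5 FPKM with IL-2 and 519, 540 and 406 FPKM with IL-33. The groups were widely separated, and the spread within each was small beside the gap. The log2 difference was 3.00 ± 0.136 (SE), the smallest p among the members (adjusted p = 2.31e-05, limma), and the ratio of the means was 8.14.

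Tnfrsf4, which encodes OX40, had the highest mean level of the 10 genes in both Th2 groups, at 614, 643 and 545 FPKM with IL-2 and 770, 703 and 944 FPKM with IL-33. The groups did not overlap, but the difference was small, 0.42 ± 0.138 (SE) in log2 units with an adjusted p of 0.0478 (limma). That call was lost when libraries 5 and 6 were both left out (log2 0.23, adjusted p = 0.103, limma) and when any single library was left out. With libraries 5 and 6 as a block Tnfrsf4 was still called higher. Its neighbour Tnfrsf18, which encodes GITR, measured 285, 312 and 248 FPKM with IL-2 and 341, 308 and 390 FPKM with IL-33, with overlapping groups. The log2 difference of 0.30 (95% interval -0.01 to 0.60) missed the threshold (adjusted p = 0.102, limma). Cd27, a receptor of naive and memory T cells, measured 42.9, 43.9 and 30.2 FPKM with IL-2 and 75.9, 68.2 and 53.9 FPKM with IL-33, which was a log2 difference of 0.75 ± 0.180 (SE; adjusted p = 0.0155, limma). The Cd27 groups did not overlap, although the adjusted p rose to 0.0582 without IL-33 library 2 and to 0.0565 without IL-33 library 4.

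Among the ligands, Tnfsf4, which encodes the OX40 ligand, measured 26.9, 27.6 and 109 FPKM with IL-2 and 0.518, 0.690 and 2.23 FPKM with IL-33. All IL-33 libraries were far below all IL-2 libraries, and libraries 5 and 6 were the highest of their groups. The log2 difference was -4.45 ± 0.560 (SE; adjusted p = 0.00126, limma), and the IL-2 mean was 47.4 times the IL-33 mean. That ratio rested on libraries 5 and 6, being 23.7 without library 5 and 90.04 without library 6. Tnfsf8, the ligand of CD30, measured 359, 339 and 873 FPKM with IL-2 and 98.7, 88.5 and 145 FPKM with IL-33. In library 5 it exceeded Tnfrsf4. It fell by 2.12 ± 0.377 (SE) on the log2 scale (adjusted p = 0.00513, limma), and the IL-2 mean was 4.72 times the IL-33 mean, or 3.15 times without library 5. Tnfrsf8, Tnfrsf9, Tnfsf4 and Tnfsf8 were called in the same direction in 15 of 15 alternative fits. Tnfsf4 with IL-33 reached 1 FPKM only in library 6, and Tnfrsf8 with IL-2 stayed below it in library 5. Both thus passed the filter of 1 FPKM in 3 libraries only through the group where they were high. For Tnfsf4 and Tnfrsf8 the direction was favoured in advance, so their repeated calls add no separate support.

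The other 3 ligands did not pass the test over the 6 libraries. Cd40lg, which encodes the ligand through which helper T cells license B cells and dendritic cells, measured 148, 157 and 250 FPKM with IL-2 and 104, 106 and 289 FPKM with IL-33. The groups overlapped, with library 6 the highest of all, and the log2 difference was -0.29 (95% interval -1.26 to 0.69; adjusted p = 0.598, limma). Without libraries 5 and 6 it was called lower, at -0.54 with an adjusted p of 0.000829 (limma). With both as a block Cd40lg was not called. Tnfsf9, the CD137 ligand, ranged from 4.18 to 12.2 FPKM with IL-2 and from 8.46 to 21.7 FPKM with IL-33, with a log2 difference of 0.74 (interval -0.30 to 1.78; adjusted p = 0.212, limma), and was called higher without libraries 5 and 6 (0.72, adjusted p = 0.00206, limma) and with these as a block (adjusted p = 0.00131, limma). Tnfsf11, or RANKL, ranged from 12.6 to 21.6 FPKM with IL-2 and from 15.0 to 35.7 FPKM with IL-33 (log2 0.36, interval -0.47 to 1.19; adjusted p = 0.432, limma), and was called higher with libraries 5 and 6 as a block (adjusted p = 0.0301, limma).

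**Figure D2:**
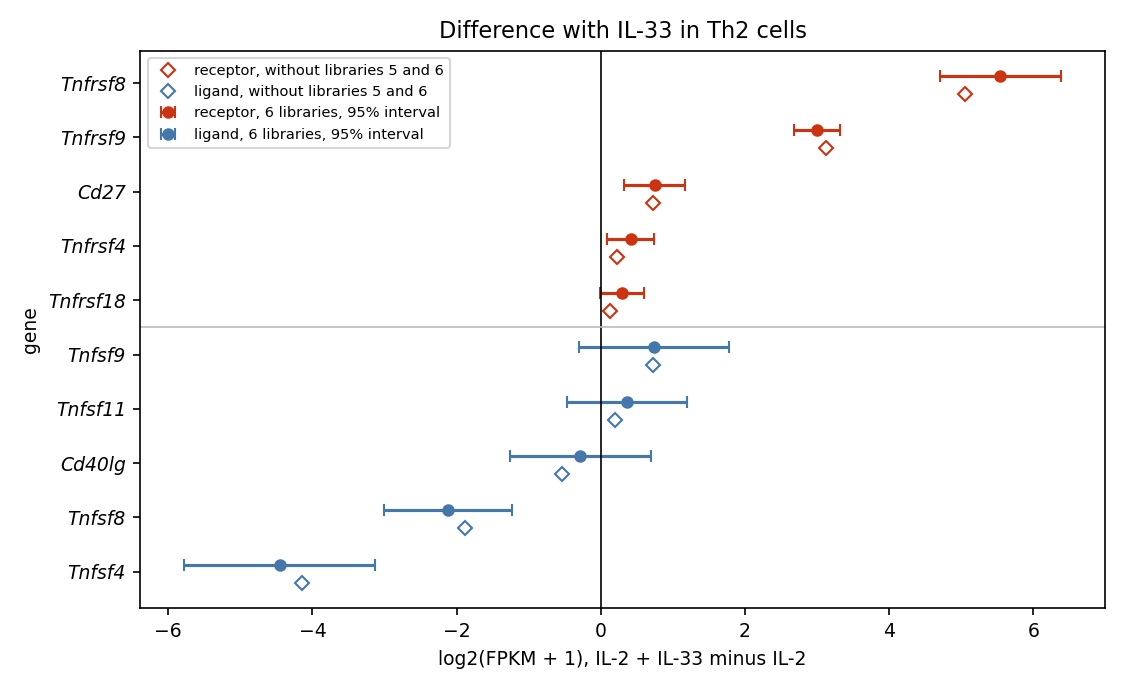
Difference in log2(FPKM + 1) between IL-2 with IL-33 and IL-2 alone for the 5 receptors (upper) and 5 ligands (lower); filled points and bars are the limma estimate from 6 libraries with its 95% interval, and open diamonds the estimate without libraries 5 and 6. Tnfrsf8 at 5.54 and Tnfsf4 at -4.45 lie farthest from 0 in opposite directions, and the ligand intervals are wider than those of Tnfrsf9, Cd27, Tnfrsf4 and Tnfrsf18.

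Among the members, receptors and ligands also differed in how libraries 5 and 6 stood to the rest. Library 5 held 1.64 to 3.99 times the mean of libraries 1 and 3 for the 5 ligands, and library 6 held 1.55 to 3.70 times the mean of libraries 2 and 4. For the member receptors the same ratios ran from 0.154 (Tnfrsf8) to 0.988 (Tnfrsf9) in library 5 and from 0.748 (Cd27) to 1.28 (Tnfrsf4) in library 6. The split did not extend to 17 other receptors of the family. Their sum was 170 FPKM in library 5, against 122 and 124 FPKM in libraries 1 and 3. In library 6 it was 165 FPKM, against 118 and 124 FPKM in libraries 2 and 4. Libraries 5 and 6 had the lowest relative depth of the Th2 set, 0.669 and 0.737, whose part in the difference was not tested.

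T cell markers moved with the treatment as well. Of the 11 markers, 7 were higher and 2 (Cd5 and Cd6) lower with IL-33, and their sum went from 1678 to 1973 FPKM up to 2667 to 2694 FPKM. Per 1000 FPKM of these markers, Tnfrsf8 went from 0.999 ± 0.656 to 46.0 ± 2.11 and Tnfrsf9 from 32.6 ± 3.59 to 183 ± 27.8 (SD, n = 3), so both were still far apart. On the same scale Cd27 measured 18.02 to 22.7 with IL-2 and 20.01 to 28.4 with IL-33, and Tnfrsf4 measured 325 to 326 and 264 to 350, with overlapping groups in both cases. Tnfrsf18 on this scale was 148 to 158 with IL-2 and 115 to 145 with IL-33, below rather than above. In bulk libraries, fewer cells of a type and less RNA per cell cannot be told apart.

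FPKM is per length, so receptor and ligand could be set side by side within a library. With IL-2 the libraries held 143, 121 and 2136 times as much Tnfsf8 as Tnfrsf8, whereas with IL-33 the ratio of ligand to receptor was 0.847, 0.709 and 1.13. The OX40 receptor exceeded its ligand by 22.9, 23.3 and 5.02 times with IL-2 and by 1487, 1020 and 423 times with IL-33. Tnfrsf9 exceeded Tnfsf9 by 9.48, 15.9 and 4.87 times with IL-2 and by 61.4, 60.5 and 18.7 times with IL-33. In log2(FPKM + 1) units the balance of receptor over ligand moved from -7.48 to 0.18 for Tnfrsf8 and Tnfsf8, from 3.76 to 8.63 for Tnfrsf4 and Tnfsf4 and from 2.98 to 5.24 for Tnfrsf9 and Tnfsf9. Each of these 3 balances was higher in all 3 IL-33 libraries than in all IL-2 libraries, with an exact two-sided permutation p of 0.1, the smallest that 3 against 3 allow, and 0.175 after adjustment over the 7 pairs compared. Another pair had the same p-values in the other direction: the balance of Cd40 over Cd40lg went from -5.74 to -6.63 and was lower in all 3 IL-33 libraries.

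**Figure D3:**
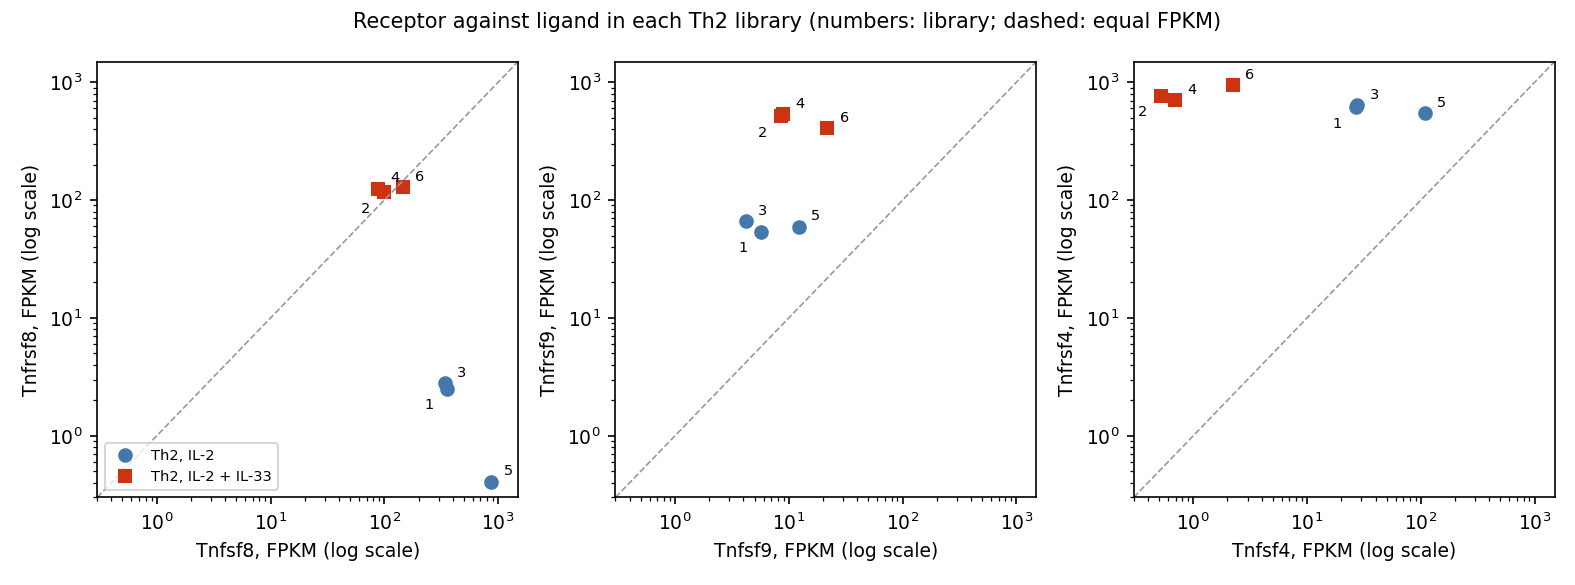
Receptor (vertical) against ligand (horizontal) in FPKM, both on log scales, for CD30, CD137 and OX40 and their ligands in the 6 Th2 libraries, numbered; the dashed line marks equal FPKM. With IL-33 the CD30 libraries move from far below the line to the line, at ratios of ligand to receptor of 0.709 to 1.13, and the OX40 libraries move left, to ligand levels of 2.23 FPKM or less.

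Partners of the remaining members were scarce in Th2 cells. Tnfsf18, the GITR ligand, was listed at 0 in 5 of 6 libraries, Tnfrsf11a, the RANKL receptor RANK, measured 0.109 to 0.588 FPKM, and Tnfrsf11b, its decoy receptor, at most 0.0278 FPKM. Cd70, the ligand of CD27, measured 0.228 to 3.52 FPKM. Cd40, the receptor of CD40 ligand on antigen-presenting cells, measured 1.94, 1.62 and 4.03 FPKM with IL-2 and 0.284, 0.392 and 0.873 FPKM with IL-33, which was a fall of 1.18 ± 0.267 (SE) on the log2 scale (adjusted p = 0.0127, limma). It was tested only because of its IL-2 levels, so a lower call was favoured in advance and adds no separate support.

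Most of the other TNF family ligands that could be tested were lower with IL-33. Of the 7 tested of 11 listed, 6 were lower (85.7%, against 25.7% of all genes) and none higher, with a median log2 difference of -1.52 against -0.11 over all genes tested. They were Tnfsf13b, which encodes the B cell survival factor BAFF (-1.52), Tnfsf10, or TRAIL (-2.03), Lta, or lymphotoxin alpha (-2.89), Ltb, its membrane partner (-1.42), Tnfsf14, or LIGHT (-1.56), and Fasl (-1.05), with adjusted p from 0.000372 to 0.0399 (limma). Lta measured 82.4, 89.1 and 288 FPKM with IL-2 and 13.2, 14.7 and 23.0 FPKM with IL-33, without overlap. Tnfsf13b stayed at or below 0.649 FPKM with IL-33, so it was tested only because of its IL-2 levels. Fasl measured 0.840 to 2.17 FPKM with IL-33 and would not have passed the filter on these libraries alone. For both genes a lower call was favoured in advance. The lists were also chosen when earlier results were known, so the share of lower calls is not read as a result. Tnf itself had a difference of -0.97 that was not called (adjusted p = 0.262, limma).

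Among other family receptors 11 of 17 listed were tested, 2 were higher and 2 lower, and the median difference was -0.03. Tnfrsf12a, the receptor of TWEAK, averaged 8.04 FPKM with IL-2 and 20.2 FPKM with IL-33 (log2 1.22, adjusted p = 0.000662, limma), and Tnfrsf13b, or TACI, averaged 3.17 and 5.62 FPKM (0.66, adjusted p = 0.00167, limma). Relt and Tnfrsf1a, the main TNF receptor, were lower (-0.43 and -0.53). Of 23 TRAF and NF-kB genes, 2 were higher and 5 lower (30.4%, against 42.1% of all genes), with a median of -0.21. Tnfaip3, the NF-kB feedback inhibitor A20, rose by 1.21 (adjusted p = 0.00325, limma) and Traf6, an adaptor of both TNF family and IL-33 receptors, by 0.39. Rel and Nfkb1, which encode NF-kB subunits, fell by 1.16 and 0.74, and Tradd, Chuk and Ikbkg by 0.26 to 0.31. Over the 4 lists 18 of 43 tested genes were called (41.9%, against 42.1% of all genes), and 14 were lower (32.6%, against 25.7%), so the count of calls is near the background. The lower count ranged from 5 to 18 when a single library was left out, was 22 without libraries 5 and 6 and was 23 with both as a block.

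The share of calls that were higher depended on scaling. It was 38.8% over all genes with the values as deposited, 55.6% after conversion to TPM, which sets all libraries to one sum, and 54.5% with median-of-ratios scaling, which moved the median log2 difference of all genes from -0.11 to 0.00. The 6 member calls held under both scalings, and Tnfrsf18 was also called higher with median-of-ratios scaling (0.42, adjusted p = 0.0384, limma). The 4 lists had 4 genes higher under both scalings and 11 lower with TPM or 10 with median-of-ratios.

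The genes whose levels followed each member most closely are given as a description, since samples share groups and depth. Over the 12 mouse libraries Tnfrsf4 and Tnfrsf18 had each other as their closest gene, with r = 0.999, followed by Zap70, a T cell receptor kinase, within the first 3 of both. Tnfrsf8 lay closest to Slc17a6, Nts and Usp44 (r = 0.996 to 0.994), of which Nts, or neurotensin, averaged 1.99 FPKM with IL-2 and 214 FPKM with IL-33. Tnfrsf9 lay closest to Ccr8, a chemokine receptor of Th2 cells, to Tarbp2 and to Glipr1 (r = 0.995 to 0.992). Tnfsf8 lay closest to Cd69, an early activation marker (r = 0.998), which averaged 640 FPKM with IL-2 and 165 FPKM with IL-33, and then to Nol6 and Wdr3. Tnfsf4 lay closest to Papd7, Phb and Hbegf, Tnfsf11 to Ccdc21, Orc1 and Plagl2, Cd40lg to Cdc25a, Hars and Tsen54, and Cd27 to Def6, Skap1 and Cd3d (r = 0.986 to 0.998). Between 87 and 1465 genes passed r = 0.95 with a given member, and the 12 points fall into Th2 cells and lung.

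Over the 6 Th2 libraries alone the closest genes were others. They were Plekhf1, Gpr174 and Cyp11a1, a steroid-making enzyme, for Tnfrsf8, Scarb2, Cxcr4 and Ctse for Tnfrsf9, and Mob3b, Slc9a8 and Atr for Tnfsf8. Cdc6, Il4 and S100a3 stood closest to Tnfrsf4, Gpnmb, Cdc6 and Syce2 to Tnfrsf18, Irgm1, Max and Mthfs to Tnfsf4, and Serinc1, Psenen and Smc1a to Cd27. Arl14, S100a6 and Nek6 stood closest to Tnfsf11, and Pofut1, Ube2cbp and Ifitm2 to Cd40lg. These correlations ran from 0.977 to 1.00 over 6 libraries, and 24 to 1196 genes passed r = 0.95 with a given member.

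All 10 members were higher in cultured Th2 cells than in whole lung of OVA-treated mice, where levels were low. In a limma fit over the 12 mouse libraries, 88.5% of 14148 genes were called, 34.0% as higher and 54.5% as lower in Th2 cells. By the same fit 10 of 10 members were higher, with adjusted p from 5.27e-11 to 9.01e-05 and in 18 of 18 alternative fits each. Tnfrsf8, Tnfsf8, Tnfsf4 and Tnfsf11 did not reach 1 FPKM in 3 lung libraries and were tested only through their Th2 levels. For these genes the direction was favoured in advance, so their calls add no separate support. The Th2 and lung libraries did not overlap for 9 of 10 members, against 71.1% of all genes, the exception being Tnfrsf8, whose library 5 value of 0.409 FPKM lay within the lung range. The log2 difference was largest for Tnfrsf4 (7.56) and Tnfsf8 (6.84) and smallest for Cd27 (2.69) and Tnfsf9 (1.65). Cell type, culture and preparation cannot be told apart in this comparison. The partners went the other way for Cd40 (-2.82), Tnfrsf11b (-1.65) and Tnfrsf11a (-1.27), which were lower in Th2 cells, while Cd70 was higher (0.92), with adjusted p from 1.94e-08 to 0.00618 (limma). Tnfrsf11b and Tnfrsf11a stayed below 1 FPKM in every Th2 library, and Cd70 did so in every lung. They were tested only through the side where they were higher, so their calls add no separate support.

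Set against the T cell markers of the same library, the order of tissues changed for some members. Per 1000 FPKM of summed markers, Tnfrsf4 measured 264 to 350 over the Th2 libraries and 13.0 to 27.9 over the lungs, still well apart. Cd27 measured 18.02 to 28.4 in Th2 cells and 48.3 to 61.5 in lung, so its lung level per T cell marker was above that of the cultured cells, and Tnfsf9 likewise measured 2.12 to 8.06 against 13.9 to 24.1. Tnfrsf9 measured 28.6 to 35.5 with IL-2, within the lung range of 10.98 to 58.8, and 151 to 202 with IL-33. Tnfrsf8 with IL-2 measured 0.244 to 1.42, below wild-type lung at 2.55 to 2.64 and within the dGATA range of 0.530 to 2.94 in part. Tnfsf4 with IL-33 measured 0.194 to 0.829, below wild-type lung at 0.965 to 2.85 and overlapping dGATA lung at 0.517 to 2.01. Lung also held 42.5 to 179 FPKM of B cell markers and 131 to 449 FPKM of macrophage and monocyte markers, whose part in these levels was not tested.

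**Figure D4:**
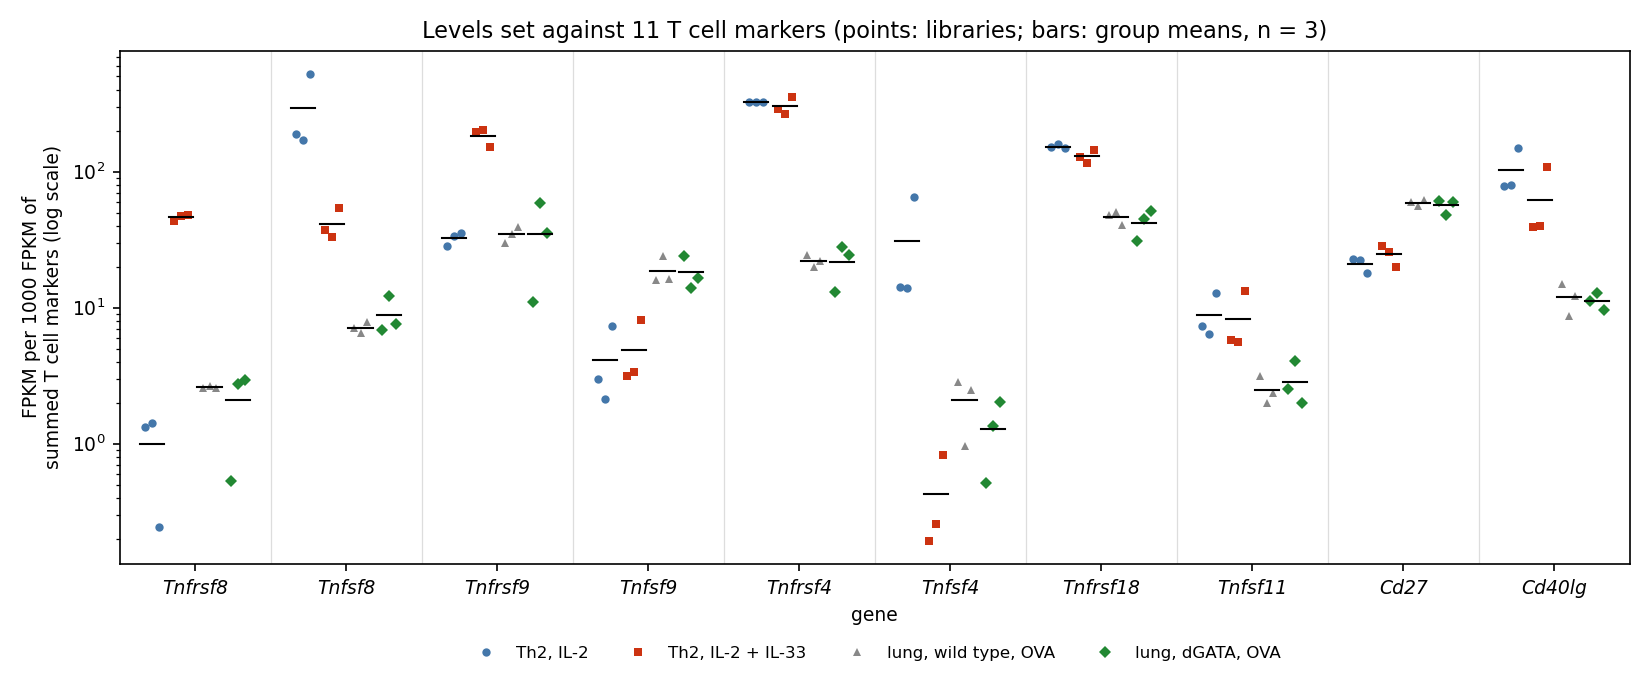
FPKM of each gene per 1000 FPKM of 11 summed T cell markers of the same library (log scale) in the 12 mouse libraries; points are libraries and bars are group means (n = 3). Cd27 and Tnfsf9 lie above both Th2 groups in lung, while Tnfrsf4, Tnfrsf18, Cd40lg, Tnfsf8 and Tnfsf11 lie below both.

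Between dGATA and wild-type lung no member was called. Of the 10 members 6 passed the filter of 1 FPKM in 3 libraries, and 0 of these were called by limma (adjusted p at least 0.980), 0 had an unadjusted p under 0.05, and 0 of 6 had groups free of overlap, against 0.0947% called and 14.1% without overlap among 13727 genes. Tnfrsf9 measured 4.09, 3.70 and 4.59 FPKM in wild-type lung and 0.761, 10.7 and 4.90 FPKM in dGATA lung, where library 1 was the lowest and library 2 the highest of the 6. The log2 difference was -0.05, with a 95% interval of -1.60 to 1.499, so these libraries do not tell apart changes within that range. Tnfrsf18 measured 6.61, 5.40 and 4.74 FPKM in wild-type and 2.13, 8.07 and 7.11 FPKM in dGATA lung (interval -1.07 to 0.88). Cd27 measured 8.20, 5.99 and 7.22 FPKM against 4.23, 8.74 and 8.32 FPKM (interval -0.67 to 0.57). Tnfrsf4, Cd40lg and Tnfsf9 ranged from 0.771 to 5.05 FPKM over the lungs, and their intervals also included 0.

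The members below the filter were compared by exact two-sided permutation tests, with p = 1 for Tnfrsf8, 0.7 for Tnfsf8, 0.5 for Tnfsf4 and 0.9 for Tnfsf11. They ranged from 0.0359 to 2.20 FPKM over the 6 lungs. The dGATA library 1 was the lowest of 6 for 10 of 10 members and dGATA library 2 the highest for 8 of 10. The same libraries were the lowest for 11 of 11 and the highest for 10 of 11 T cell markers, whose sum was 107 to 138 FPKM in wild-type lung and 69.3, 181 and 139 FPKM in dGATA lung. Without dGATA library 1 the difference was 0.70 for Tnfrsf9 and 0.39 for Tnfrsf18, with adjusted p of 0.295 and 0.261 (limma). None of the 48 tested family and signalling genes was called by limma, and 4 had an unadjusted p under 0.05. The lowest p was that of Tnfrsf10b, a TRAIL receptor (-0.36, adjusted p = 0.614), followed by Cd40 at 18.7, 16.8 and 17.95 FPKM against 10.51, 16.3 and 10.9 FPKM (-0.50, adjusted p = 0.654).

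In the eosinophil libraries the members were low, and none was called between amphiregulin and none. CD27, TNFRSF18 and CD40LG had the highest means without amphiregulin, at 18.6 ± 13.9, 6.00 ± 2.89 and 7.94 ± 7.22 FPKM (SD, n = 3), and TNFRSF9 and TNFSF9 stayed at or below 0.817 FPKM in every library. By limma 0 of 6 members above the filter were called, 0 had an unadjusted p under 0.05, and 0 of 6 had groups free of overlap, against 0.206% called and 6.69% without overlap among 12636 genes. The adjusted p was 0.999 for each of the 6, and the exact permutation p of the 4 below the filter was 0.3 for TNFRSF9, 0.6 for TNFSF9, 0.7 for TNFSF4 and 0.5 for TNFSF11.

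Eosinophil libraries of equal sample number were taken as pairs (correlations of 0.399, 0.356 and 0.670 after removing group means). Unlike numbers correlated at 0.308 (2 without and 3 with amphiregulin) and 0.281 (3 without and 2 with it). The correlations thus set number 4 apart but hardly tell number 2 from number 3. Within the pairs so taken, several members were lower with amphiregulin. CD27 measured 34.6, 9.60 and 11.5 FPKM without amphiregulin and 18.4, 6.84 and 3.25 FPKM with it, in the order of sample numbers 2, 3 and 4. TNFRSF18 measured 9.16, 5.37 and 3.48 FPKM without and 4.83, 2.69 and 0.289 FPKM with it. Both were lower in 3 of 3 pairs, although the groups overlapped. So were 5 of 10 members, or 3 of the 6 above the filter, against 14.9% of all genes above it. With the sample number as a block, which called 1.12% of all genes, 0 members were called and 2 had an unadjusted p under 0.05, TNFRSF18 (log2 -1.13, adjusted p = 0.152) and CD27 (-0.96, adjusted p = 0.180) by limma. T cell markers were lower in 3 of 3 pairs for 11 of 11 genes, as were 5 of 6 neutrophil markers and 4 of 6 markers of CD8 and NK cells. The T cell markers summed to 631, 455 and 292 FPKM without amphiregulin and 356, 291 and 168 FPKM with it, and the part of these cells in the differences was not tested. Per 1000 FPKM of these markers CD27 measured 54.8, 21.1 and 39.6 without amphiregulin and 51.7, 23.5 and 19.3 with it, lower in pairs 2 and 4. TNFRSF18 on this scale measured 14.5, 11.8 and 11.9 without and 13.6, 9.22 and 1.72 with amphiregulin, lower in 3 of 3 pairs.

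**Figure D5:**
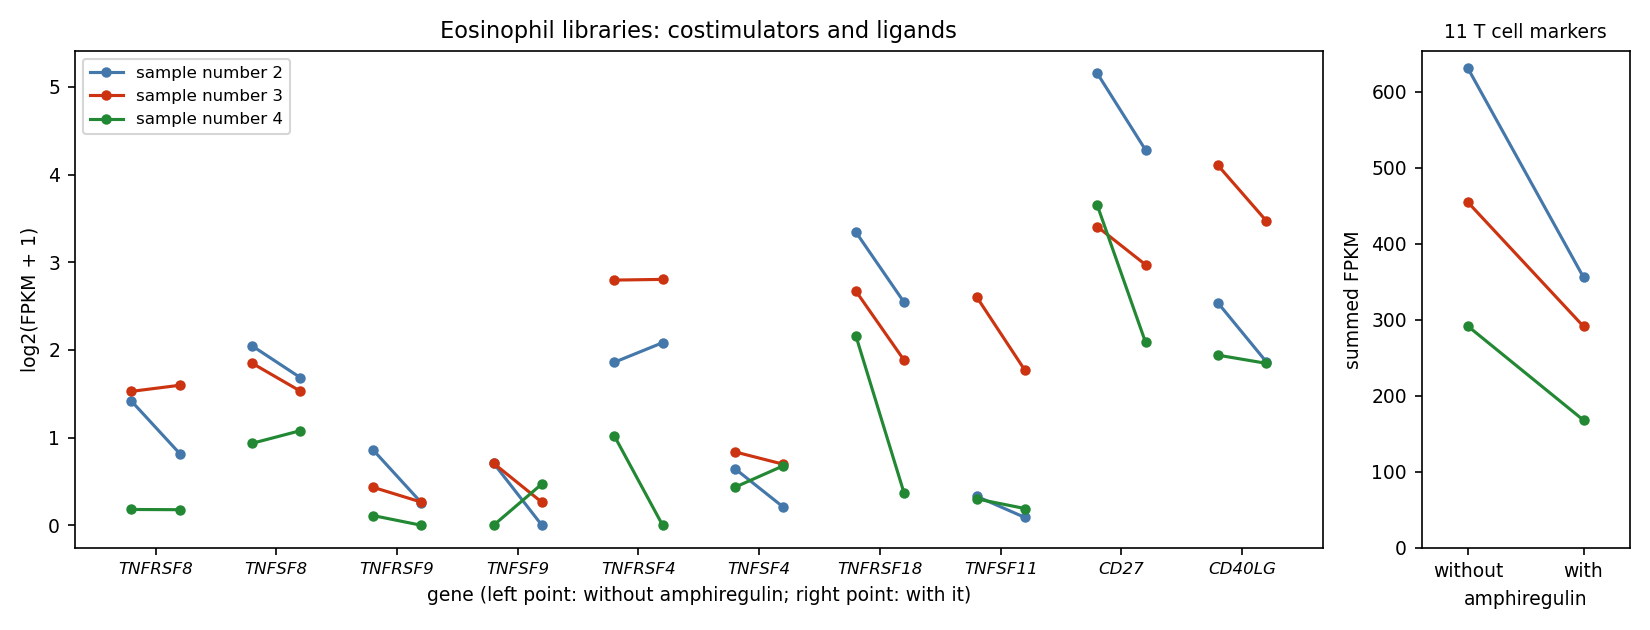
Left, log2(FPKM + 1) of the 10 genes in the 6 eosinophil libraries, with lines joining libraries of equal sample number (left point without amphiregulin, right point with it); right, summed FPKM of 11 T cell markers in the same libraries. The CD27, TNFRSF18 and CD40LG lines fall in 3 of 3 pairs, and so does the marker sum.

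CD40, the receptor of CD40 ligand, was called in the eosinophils in the blocked fit and not in the fit without the block; no other family or signalling gene was called in either. It measured 2.67, 2.09 and 0.818 FPKM without amphiregulin and 26.4, 32.7 and 3.99 FPKM with it, without overlap and higher in 3 of 3 pairs. The log2 difference was 2.60 ± 0.740 (SE) with an adjusted p of 0.999 in the fit without the block and 0.0317 with it (limma). Without amphiregulin library 4, the lowest of its group, CD40 was called without a block as well (log2 3.47, adjusted p = 0.0250). It was called in none of the other alternative fits without a block that tested it. There the adjusted p was 0.410 with TPM and at least 0.867 in the rest (limma). The balance of CD40 over CD40LG in log2 units went from -1.40 to 1.66 (exact permutation p = 0.1, the smallest possible, and 0.467 adjusted over the 7 pairs). In the same blocked fit 2 of 5 tested dendritic cell markers were higher, and of 6 tested macrophage and monocyte markers 1 was higher and 3 were lower, so markers of other cells moved with CD40 and their part in the difference was not tested. The 44 family and signalling genes tested, CD40 included, had a median log2 difference of 0.04, against 0.02 over all genes.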

How the data were processed

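FPKM values per gene were deposited by the authors for 18 libraries. Per the submitters' processing notes they were made with Bowtie 0.12.8, TopHat 1.3.2, Cufflinks 2.0.2 and mm10, and the sources used here do not give the build of the human eosinophil tables. Per the labels' protocols RNA was total RNA and the kit a stranded mRNA kit; whether counting used strand is not stated. Samples were grouped by their titles. FPKM was summed per symbol, and 114 human symbols, Y-linked or of X inactivation, were left out. Small RNA features took 3.99 to 38.4% of FPKM. Genes with FPKM of at least 1 in at least 3 libraries were tested on log2(FPKM + 1) with limma 3.58.1 (trend) in R 4.3.3, each comparison on its own libraries, and members below the filter by exact permutation. Relative depth came from the most frequent ratio of FPKM values below 0.2. Intervals are 95%.

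Genes named are the members, up to 4 genes of each other list with the smallest p in a comparison and its called genes where 5 or fewer were called, and the 3 closest genes per member with a mean of at least 20 FPKM in some mouse group. For the other family ligands all 6 called genes, and for the signalling genes all 7, are named, chosen after their values were seen. Members and lists were chosen with earlier results of these data known. Alternatives were a pseudocount of 0.1, no filter, a filter of 5 FPKM, TPM, median-of-ratios scaling, removal of small RNA, single libraries left out, a 12-library model and a replicate block. The fits without Th2 libraries 5 and 6 or with both as a block, and the replicate block and the 12-library model for the lists, were added after the data were seen, as were the levels per T cell marker. Motifs were searched in RefSeq promoter windows.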

Additional observations from a re-analysis of the deposited data

How the results depend on the processing

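Tnfrsf8, Tnfrsf9, Tnfsf4 and Tnfsf8 kept their direction and stayed past the threshold under all 15 alternatives of the IL-33 comparison, with log2 differences of 5.05 to 6.29, 2.92 to 3.12, -5.37 to -3.80 and -2.36 to -1.68. Of these, Tnfrsf8 and Tnfsf4 passed the filter of 1 FPKM only through the group where they were high. Cd27 was called in 13 and Tnfrsf4 in 6 of 15; Tnfrsf4 was lost with no filter (adjusted p = 0.0925), in the 12-library model (0.419), without libraries 5 and 6 and in each fit that left out a library. Single libraries left out gave 2 to 3 members higher and 2 to 3 lower, and the causes were not tested. Of the listed family and signalling genes in Th2 cells, 9 were lower with no filter, where more genes were tested, and 7 were higher and 22 lower without libraries 5 and 6, and 7 higher and 23 lower with both as a block; single libraries left out gave 4 to 5 higher and 5 to 18 lower. With the replicate block the family and signalling lists in eosinophils had 1 gene higher instead of 0, and single libraries left out gave 0 to 1. The block changed no other call of a member or of these lists in eosinophils or lung. Calls of cell type markers did change with it. In eosinophils they were those of macrophage, monocyte and dendritic cell markers, and in lung the eosinophil markers went from 3 lower to 0. In lung the numbers did not pair the samples (correlations of -0.286, -0.116 and -0.243), and the block called 0 members. No replicate number recurs between the Th2 groups, so no block by number was fitted there; a block of libraries 5 and 6 gave 6 members higher and 2 lower, adding Tnfsf9 and Tnfsf11.

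In all, 29 values of 13 results changed sign, and 0 of these results had passed the threshold. With single libraries left out, Tnfsf11 in Th2 cells ranged from -0.0334 to 0.59. In eosinophils CD40LG ranged from -1.004 to 0.16, TNFRSF4 from -0.85 to 0.55, TNFRSF8 from -0.61 to 0.17 and TNFSF8 from -0.52 to 0.0392. In lung Cd27 ranged from -0.21 to 0.24, Cd40lg from -0.25 to 0.20, Tnfrsf18 from -0.38 to 0.39, Tnfrsf4 from -0.35 to 0.48, Tnfrsf9 from -0.67 to 0.70 and Tnfsf9 from -0.11 to 0.0862. In lung Cd40lg was also 0.0094 with median-of-ratios scaling, and Tnfrsf4 was -0.0789 with a pseudocount of 0.1, -0.11 with TPM and -0.11 without small RNA. With a pseudocount of 0.1 the balance moved by -0.17 for Tnfrsf18 and Tnfsf18 in Th2 cells and by -0.0947 for TNFRSF8 and TNFSF8 in eosinophils. FPKM below 1 rest on few reads, and 3 libraries a group limit the precision.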
